A study of Mus musculus with 15 samples.

Results

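Calcium and magnesium that escape the earlier nephron are recovered in the thick ascending limb, the distal convoluted tubule and the connecting tubule, and 10 genes known for that task were examined here in mouse kidney. They were chosen by name for these roles, with earlier results of these data known. The genes were Calb1, Pvalb, S100g, Trpv5, Trpm6, Slc8a1, Atp2b1, Casr, Cldn16 and Egf, 10 of the 20659 genes named on the array. The RNA came from frozen whole kidneys of male C57/BJ mice that underwent surgery at 6 weeks of age and were killed after 20 weeks on their diet. Each mouse gave 1 array. Mice on the high-fat diet (HFD) with the left kidney removed (uninephrectomy, UNX) gave 4 arrays, and HFD mice with a sham operation, in which the kidney was handled and left in place, gave 3. Mice on the low-fat diet (LFD), which the labels also call chow, gave 4 arrays after UNX and 4 after sham surgery. The labels state 6 mice per group, so the arrays cover part of each group. The kidney of a UNX mouse is the one that remained, and the labels do not say which kidney of a sham mouse was taken.

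In the thick ascending limb, divalent cations pass between the cells through pores that contain claudin-16 (Cldn16), and the calcium-sensing receptor (Casr) of those cells reads the calcium concentration of the blood. In the convoluted and connecting tubules the route leads through the cells. Calcium enters by the channel TRPV5 (Trpv5) and magnesium by TRPM6 (Trpm6). Calbindins carry calcium across (Calb1, S100g), and parvalbumin is a calcium buffer (Pvalb). An exchanger and a pump discharge calcium on the blood side (Slc8a1, Atp2b1). Egf is made in these segments and is known as a hormone that stimulates TRPM6.

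All 10 genes were well above background on all 15 arrays, as were 13533 of the 16055 genes tested. Levels are given as normalised log2 intensity, the log2 of the background-subtracted signal minus the 75th percentile of its array, so 1 unit is a 2-fold difference, and levels of different genes cannot be set against each other because each gene has its own probe. A gene passed where limma's moderated test gave a Benjamini-Hochberg adjusted p under 0.05 over all genes tested. All HFD arrays were scanned on 1 day, on slides 1 and 2, and all LFD arrays on another day, the sham mice on slide 3 and the UNX mice on slide 4. Diet and scan day therefore cannot be told apart, nor can surgery on the LFD and slide. Between 65.7% and 73.4% of probes were well above background on the HFD arrays, against 60.5% to 65.6% on the LFD arrays, and the part of this in the results was not tested. In RNA of a whole organ, fewer cells of a type and less RNA per cell cannot be told apart.

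**Figure D1:**
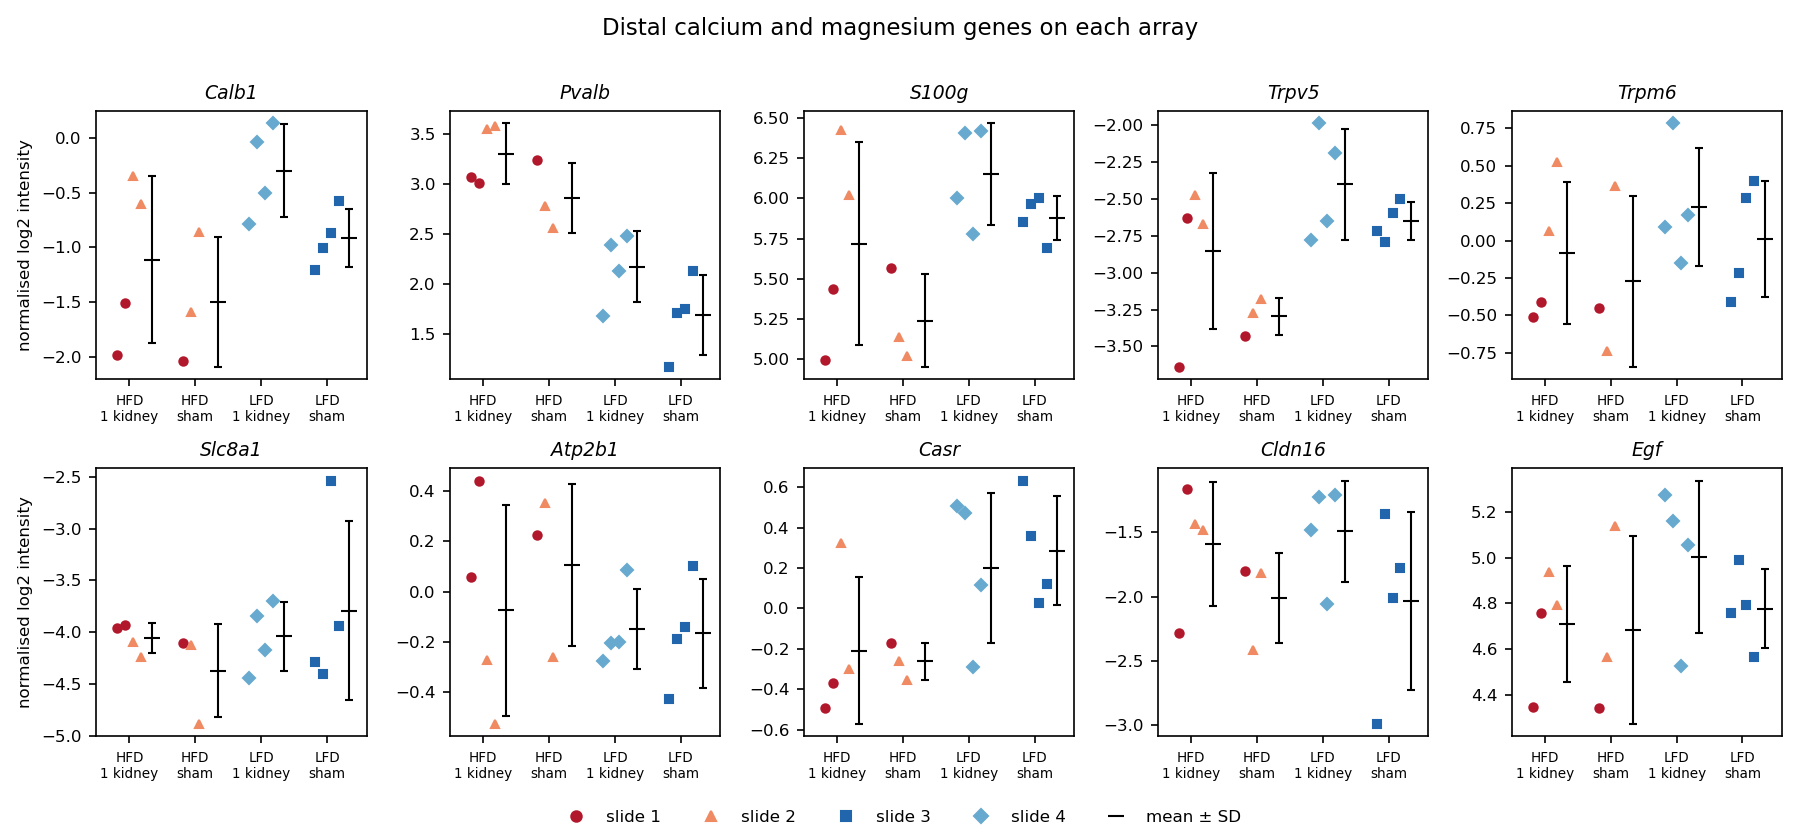
Normalised log2 intensity of the 10 genes on each array (points, coloured by slide), with the mean and SD of each group beside them; each panel has its own vertical scale. Pvalb is the gene whose HFD arrays all lie above all LFD arrays, at 2.55 or more against 2.48 or less.

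On the HFD, the kidney held more parvalbumin RNA (Pvalb) than on the LFD, 2.25-fold in sham mice and 2.18-fold in UNX mice. Pvalb was the 1 gene of the 10 that passed, in both comparisons. Across all genes tested, 13.8% passed in sham mice (6.82% higher and 6.99% lower on the HFD) and 14% in UNX mice (7.89% higher and 6.11% lower), so 1 of 10 is near the background share. The median log2 difference of the 10 genes, HFD minus LFD, was -0.42 in sham mice and -0.30 in UNX mice, where the median over all genes was -0.01 and 0.00. In sham mice 7 of the 10 genes had a difference below 0, against 50.5% of all genes, and in UNX mice 8 did, against 49.8% of all genes. Without adjustment, p was under 0.05 for 4 of the 10 genes in sham mice and for 2 in UNX mice, where all genes gave 30.1% and 29.5%.

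Pvalb encodes a calcium buffer that in mouse kidney marks the early part of the distal convoluted tubule, and is best known from fast muscle fibres and inhibitory neurons. Among sham mice it stood at 3.24, 2.78 and 2.55 on the HFD arrays, and at 1.17, 1.71, 1.75 and 2.13 on the LFD arrays. Among UNX mice it stood at 3.07, 3.01, 3.54 and 3.58 on the HFD arrays, and at 1.69, 2.39, 2.13 and 2.48 on the LFD arrays. The diets did not overlap in either comparison, and the lowest HFD array of all lay just above the highest LFD array. The groups were ordered HFD UNX (mean 3.30 ± 0.30, SD, n = 4), HFD sham (2.86 ± 0.35, n = 3), LFD UNX (2.17 ± 0.36, n = 4) and LFD sham (1.69 ± 0.40, n = 4), with each step larger than the larger SD of the groups on either side of it. Groups that do not overlap, with the HFD higher, were found for 11.5% of all genes in sham mice and 11.9% in UNX mice; groups with the HFD lower were found for 14.6% of all genes and 3 of the 10 in sham mice, and for 1711 of the 16055 genes and 0 of the 10 in UNX mice. The log2 difference was 1.17 in sham mice (95% confidence interval 0.62 to 1.71, limma adjusted p = 0.0108) and 1.13 in UNX mice (0.62 to 1.63, adjusted p = 0.00718).

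A second Pvalb probe, also well above background on all 15 arrays, gave log2 differences of 1.29 in sham mice (limma adjusted p = 0.0199 over all probes) and 1.30 in UNX mice (adjusted p = 0.0119). On that probe the HFD arrays ran between 0.77 and 1.94 over both surgeries, and the LFD arrays between -0.95 and 0.49, again with no overlap. Leaving out each array in turn left the difference between 0.98 and 1.32 in sham mice (adjusted p 0.0102 to 0.0358) and between 0.96 and 1.23 in UNX mice (adjusted p 0.0129 to 0.0261). With slide as a random block the differences were 1.16 and 1.13, and Pvalb no longer passed (adjusted p = 0.222 in sham mice and 0.258 in UNX mice), in a fit in which 0.0872% and 0.174% of all genes passed. Over all alternatives the adjusted p of Pvalb ran from 0.00437 to 0.222 in sham mice and from 0.00366 to 0.258 in UNX mice, and it passed in each except the random block.

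**Figure D2:**
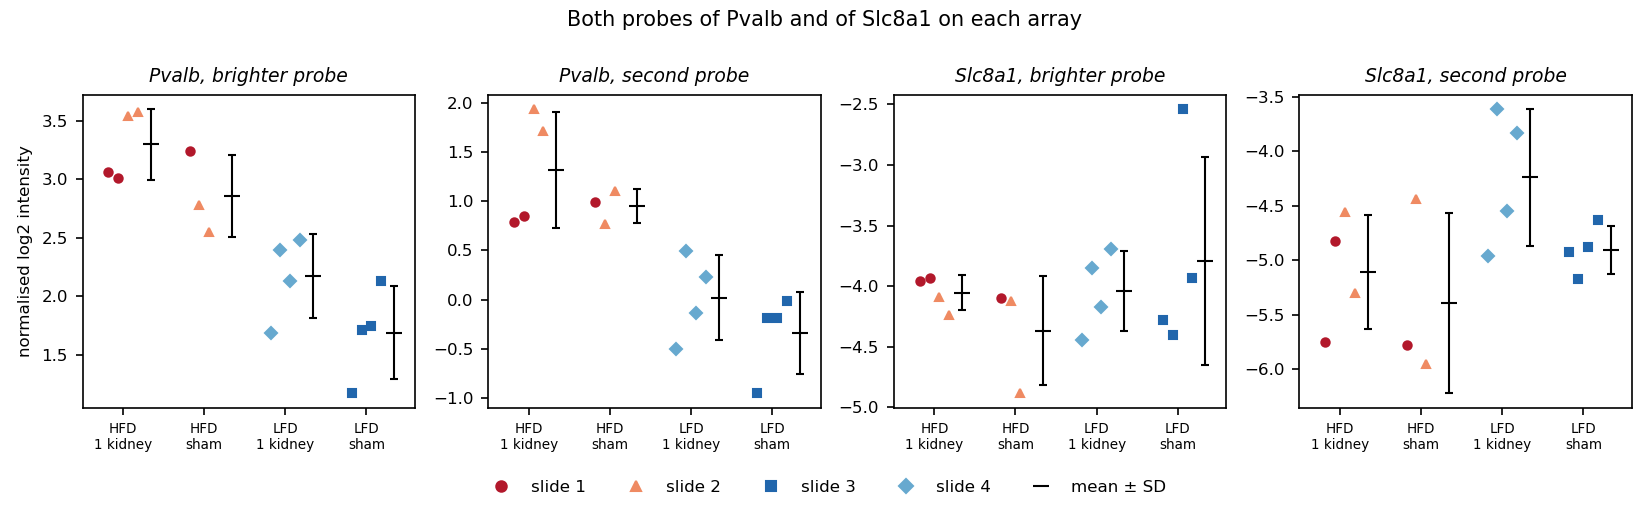
Normalised log2 intensity of both probes of Pvalb and of Slc8a1 on each array (points, coloured by slide), with group means and SD. Both Pvalb probes place the HFD arrays above the LFD arrays, while the probes of Slc8a1 differ in the UNX mice, with log2 differences of -0.02 and -0.87.

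Muscle transcripts were examined because Pvalb is abundant in muscle. Of 8 skeletal muscle markers, Myh1, Myh2, Ckm and Mylpf were well above background on 0 of 15 arrays and Myh4 on 1. Acta1 and Tnni2 were well above background on 15 of 15 arrays and Tnnt3 on 4. The median log2 difference of these 3, HFD minus LFD, was -0.74 in sham mice, where Acta1 was lower. In UNX mice it was 0.01, and none passed. The mean level of these 3 markers ran from -4.86 to -4.41 on the HFD UNX arrays and -4.94 to -4.26 on the HFD sham arrays, against -4.70 to -4.23 on the LFD UNX arrays and -4.37 to -3.79 on the LFD sham arrays.

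The promoters of Pvalb are shown because it is the gene that differed by diet. RefSeq annotates a pair of transcription starts, and each window runs from 250 bases before to 50 bases after a start, 5′ to 3′ on the gene's strand (GRCm38.p6). Window 1 is chr15:78204188-78204487 and window 2 is chr15:78206351-78206650, both on the minus strand. Capitals mark AGAACA, the core letters of the elements that some steroid receptors bind.
Pvalb window 1: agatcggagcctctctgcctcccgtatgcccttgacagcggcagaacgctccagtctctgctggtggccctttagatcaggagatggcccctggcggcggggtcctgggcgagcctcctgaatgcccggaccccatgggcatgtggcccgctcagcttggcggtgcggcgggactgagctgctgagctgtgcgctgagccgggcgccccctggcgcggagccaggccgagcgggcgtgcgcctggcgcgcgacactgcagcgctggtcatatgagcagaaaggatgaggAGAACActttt
Pvalb window 2: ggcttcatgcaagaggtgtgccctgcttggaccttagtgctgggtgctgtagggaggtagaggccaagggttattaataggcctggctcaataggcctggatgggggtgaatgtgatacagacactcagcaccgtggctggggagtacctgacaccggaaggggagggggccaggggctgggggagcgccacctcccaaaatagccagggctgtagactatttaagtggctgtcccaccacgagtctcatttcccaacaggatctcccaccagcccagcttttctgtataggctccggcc
The search covered both strands and 3 motifs, the steroid receptor letters above, the nuclear receptor letters AGGTCA, which elements bound by the vitamin D receptor contain, and the TATA box letters TATAAA. Of 32851 windows of this length in the table, 19% hold the steroid receptor letters, 16.3% the nuclear receptor letters and 13.6% the TATA box letters. Window 1 of Pvalb holds the steroid receptor letters 1 time, at positions 39 to 44 past the start, and window 2 holds none of the 3 motifs. For 9 of the 10 genes the table has a window (12 windows in all), Calb1 being the exception.

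The entry channels did not pass in either diet comparison. Trpv5, the calcium channel of the convoluted and connecting tubules, stood at -3.43, -3.28 and -3.18 on the HFD sham arrays, against -2.72, -2.80, -2.60 and -2.50 on the LFD sham arrays. All HFD sham arrays lay below all LFD sham arrays, and the log2 difference was -0.64 (95% confidence interval -1.18 to -0.10, limma adjusted p = 0.105). Among UNX mice Trpv5 stood at -3.64, -2.63, -2.48 and -2.67 on the HFD arrays, and at -2.78, -1.99, -2.65 and -2.19 on the LFD arrays. These overlapped, with HFD replicate 1 far below the rest, and the difference was -0.45 (-0.95 to 0.05, adjusted p = 0.216). In a fit of the sham groups alone the sham difference of Trpv5 passed (adjusted p = 0.0371, with 7.36% of all genes passing; range over alternatives 0.0371 to 0.497). Trpm6, the magnesium channel, ranged from -0.74 to 0.36 on HFD sham arrays and -0.41 to 0.39 on LFD sham arrays. Its log2 difference was -0.29 in sham mice (adjusted p = 0.588) and -0.31 in UNX mice (adjusted p = 0.522), with overlap in both.

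Of the other calcium buffers, S100g, the small calbindin of the distal tubule, stood at 5.57, 5.14 and 5.02 on HFD sham arrays, against 5.85, 5.96, 6.00 and 5.69 on LFD sham arrays. The sham groups did not overlap, the log2 difference was -0.64 (95% confidence interval -1.24 to -0.03), and the gene did not pass (limma adjusted p = 0.144). Among UNX mice S100g stood at 4.99, 5.44, 6.42 and 6.02 on HFD arrays, and at 6.00, 6.40, 5.78 and 6.42 on LFD arrays. There the HFD arrays spread from the lowest to the highest value of the comparison, and the difference was -0.43 (-0.99 to 0.12, adjusted p = 0.288; with array weights -0.73, adjusted p = 0.0273). A second S100g probe gave -0.70 in sham mice and -0.54 in UNX mice (adjusted p = 0.121 and 0.193 over all probes).

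Calb1, the larger calbindin and the classical buffer for calcium crossing these cells, stood at -1.98, -1.51, -0.35 and -0.60 on HFD UNX arrays, against -0.78, -0.04, -0.51 and 0.13 on LFD UNX arrays. The HFD arrays fell into a low pair and a high pair, the high pair inside the LFD range. The log2 difference was -0.81 (95% confidence interval -1.56 to -0.07, limma adjusted p = 0.134). Without HFD UNX replicate 3 it was -1.07 and passed (adjusted p = 0.0439, with 20.4% of all genes passing). It also passed with array weights (-1.22, adjusted p = 0.00732, with 35.2% of all genes). With the replicate number as a block, which on the HFD partly follows slide, it passed too (adjusted p = 0.0413, with 13.4% of all genes). Over all alternatives its adjusted p ran from 0.00253 to 0.712. Among sham mice Calb1 stood at -2.04, -1.59 and -0.86 on HFD arrays, and at -1.21, -1.01, -0.87 and -0.58 on LFD arrays, which overlapped, with a difference of -0.58 (-1.39 to 0.22, adjusted p = 0.323).

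Neither of the exit proteins passed. Slc8a1, the sodium-calcium exchanger of the blood side, stood at -4.10, -4.12 and -4.88 on HFD sham arrays, against -4.28, -4.40, -2.54 and -3.94 on LFD sham arrays, where replicate 3 stood far above the other arrays. The log2 difference was -0.58 (limma adjusted p = 0.311), and without LFD sham replicate 3 it was -0.16 (adjusted p = 0.726). In UNX mice it was -0.02 (95% confidence interval -0.74 to 0.71, adjusted p = 0.981). The other Slc8a1 probe differed from this in UNX mice, where it gave -0.87 (adjusted p = 0.136 over all probes), and gave -0.49 in sham mice (adjusted p = 0.458). Atp2b1, the plasma membrane calcium pump, had log2 differences of 0.27 in sham mice (-0.19 to 0.74, adjusted p = 0.436) and 0.07 in UNX mice (-0.36 to 0.51, adjusted p = 0.840). Its arrays overlapped in both, and its second probe gave 0.02 and 0.09.

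Of the thick ascending limb pair, Casr, the receptor that senses blood calcium, stood at -0.17, -0.26 and -0.35 on HFD sham arrays, against 0.63, 0.36, 0.03 and 0.12 on LFD sham arrays. The sham groups did not overlap, the log2 difference was -0.55 (95% confidence interval -1.03 to -0.06), and the gene did not pass (limma adjusted p = 0.120). Among UNX mice Casr stood at -0.49, -0.37, 0.32 and -0.30 on HFD arrays, and at 0.51, 0.47, -0.29 and 0.12 on LFD arrays. Those overlapped, with a difference of -0.41 (-0.86 to 0.04, adjusted p = 0.210), and without HFD UNX replicate 3, the highest of its group, the difference was -0.59 and passed (adjusted p = 0.0479, the lowest of its alternatives, which reached 0.689). Cldn16, the paracellular pore claudin, differed by 0.02 in sham mice (-0.74 to 0.78, adjusted p = 0.977) and -0.10 in UNX mice (-0.80 to 0.61, adjusted p = 0.872).

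Egf, the precursor of epidermal growth factor, was printed 10 times on the array. The SD between its spots on an array was 0.03 to 0.10 (median 0.06) on the log2 scale, against 0.17 to 0.41 between mice of a group. Egf stood at 4.34, 4.57 and 5.14 on HFD sham arrays, against 4.76, 4.99, 4.79 and 4.57 on LFD sham arrays, and the log2 difference was -0.09 (95% confidence interval -0.56 to 0.37, limma adjusted p = 0.818). In UNX mice the difference was -0.30 (-0.73 to 0.14, adjusted p = 0.352).

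**Figure D3:**
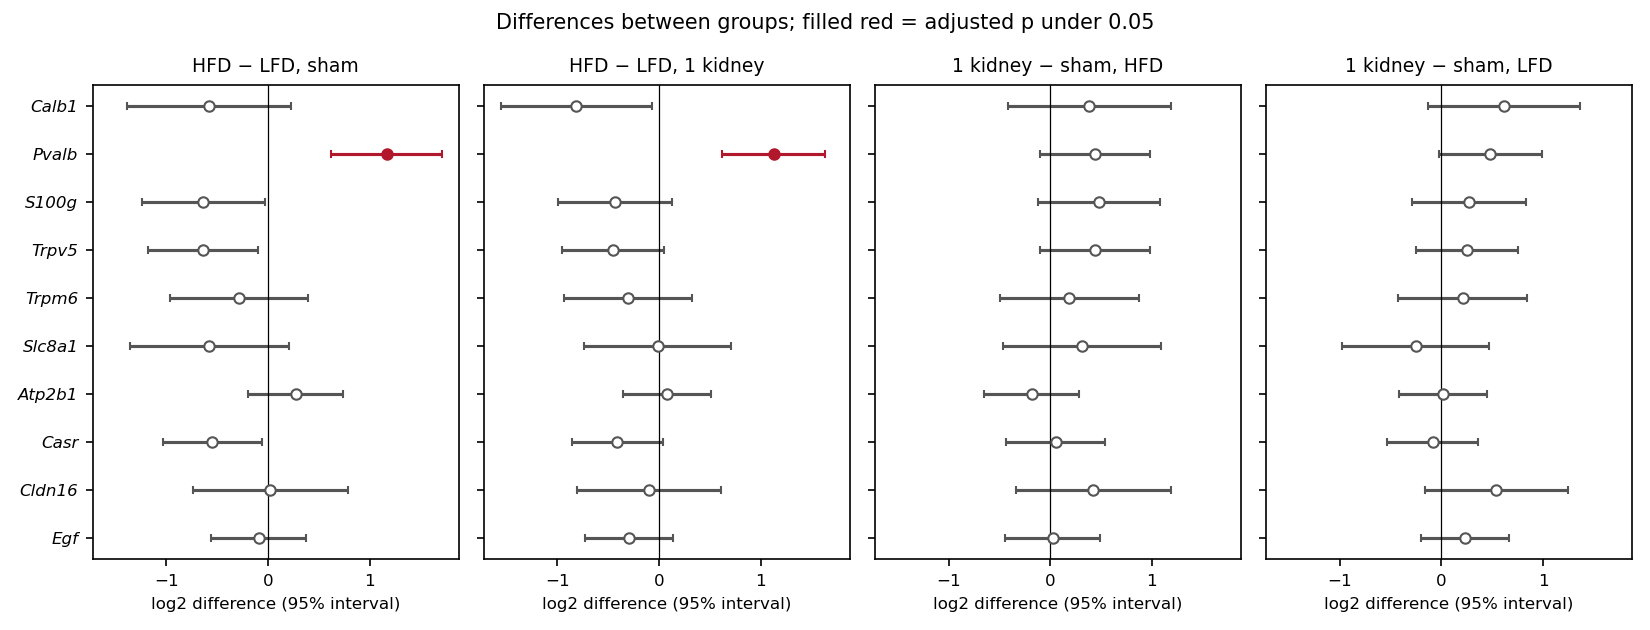
Log2 difference of each of the 10 genes in the diet comparisons (HFD minus LFD) and the surgery comparisons (1 kidney, that is UNX, minus sham), with 95% confidence intervals. Filled red points passed at an adjusted p under 0.05, which Pvalb did in both diet comparisons, at 1.17 and 1.13.

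The promoter windows of S100g, Trpv5 and Casr are shown because their sham arrays did not overlap between diets, each in the direction opposite to Pvalb. They are chrX:162964550-162964849, chr6:41680674-41680973 and chr16:36562085-36562384, all on the minus strand (RefSeq, GRCm38.p6). Capitals mark the nuclear receptor letters, on either strand, and the TATA box letters.
S100g: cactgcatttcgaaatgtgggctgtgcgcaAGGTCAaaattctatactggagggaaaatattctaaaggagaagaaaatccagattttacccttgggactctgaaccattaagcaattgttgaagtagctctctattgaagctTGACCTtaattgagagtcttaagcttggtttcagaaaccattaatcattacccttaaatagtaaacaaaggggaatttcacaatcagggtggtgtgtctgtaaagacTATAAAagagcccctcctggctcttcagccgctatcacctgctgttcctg
Trpv5: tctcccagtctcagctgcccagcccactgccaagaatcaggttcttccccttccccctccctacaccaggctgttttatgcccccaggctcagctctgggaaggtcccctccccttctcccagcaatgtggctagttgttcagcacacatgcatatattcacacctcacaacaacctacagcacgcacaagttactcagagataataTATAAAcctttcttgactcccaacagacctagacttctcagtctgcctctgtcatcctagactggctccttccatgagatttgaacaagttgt
Casr: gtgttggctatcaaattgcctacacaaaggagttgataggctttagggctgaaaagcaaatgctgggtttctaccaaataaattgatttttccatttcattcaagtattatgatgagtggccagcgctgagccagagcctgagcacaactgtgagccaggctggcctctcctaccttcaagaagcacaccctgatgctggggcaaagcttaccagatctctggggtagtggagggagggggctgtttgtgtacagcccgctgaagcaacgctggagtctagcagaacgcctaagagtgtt
The S100g window holds the nuclear receptor letters on both strands and the TATA box letters 1 time, at positions 0 to 5, on the annotated start itself. The Trpv5 window holds the TATA box letters 1 time, at positions -43 to -38 from the start, and the Casr window holds none of the 3 motifs. Of the windows not shown, that of Cldn16 holds the steroid receptor letters.

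The 7 HFD mice were divided over slide 1 (3 arrays) and slide 2 (4 arrays), and Calb1 differed between those slides. Within the HFD, Calb1 ran from -2.04 to -1.51 on slide 1, against -1.59 to -0.35 on slide 2, a log2 difference of -1.09 (95% confidence interval -1.63 to -0.54, limma adjusted p = 0.00679). Calb1 was the 1 gene of the 10 that passed in this comparison, in which 31.2% of all genes passed. Pvalb differed by -0.08 between the slides (-0.65 to 0.49, adjusted p = 0.832), and Atp2b1, at 0.46 (0.06 to 0.86, adjusted p = 0.0722), came next to Calb1 by its p.

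With slides 1 and 2 as a fixed block, 3 of the 10 genes passed by diet in sham mice, with 27.6% of all genes passing. They were Pvalb (log2 difference 1.15, adjusted p = 0.00764), Calb1 (-0.76, adjusted p = 0.0399) and Trpv5 (-0.71, adjusted p = 0.0395). In UNX mice Pvalb (1.13, adjusted p = 0.00555) and Calb1 (-0.81, adjusted p = 0.0215) passed, with 25.4% of all genes. This block took the difference between slides 1 and 2 out of the spread, and the LFD slides had no such term. Slide differences between the diets therefore stayed in these values, and the adjusted p does not count variation from slide to slide.

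Each HFD slide was also set alone against the LFD arrays, in fits added after the data were seen. For Pvalb the difference in UNX mice was 0.87 on slide 1 and 1.39 on slide 2, and in sham mice 1.55 and 0.98, and it passed in all 4 fits (adjusted p 0.00801 to 0.0265). The sham value of slide 1 rests on 1 HFD array, assumed to vary like the other groups. For Calb1 in UNX mice the difference was -1.45 on slide 1 (adjusted p = 0.00253) and -0.18 on slide 2 (adjusted p = 0.712), and in sham mice -1.13 (adjusted p = 0.0385) and -0.31 (adjusted p = 0.465). For S100g in UNX mice it was -0.94 on slide 1 (adjusted p = 0.00494) and 0.07 on slide 2 (adjusted p = 0.844), whereas in sham mice it was -0.31 on slide 1 (adjusted p = 0.396) and -0.80 on slide 2 (adjusted p = 0.0161). The share of all genes passing was 47.5% for slide 1 and 14.8% for slide 2 in UNX mice, and 30.1% and 22.7% in sham mice. In UNX mice Calb1 and S100g thus passed on slide 1 and not on slide 2, while Pvalb passed on both. In sham mice S100g passed on slide 2, the opposite slide. Set directly against each other within the HFD, slides 1 and 2 differed by -0.41 for S100g, with overlap. S100g did not pass there (limma adjusted p = 0.271), whereas Calb1 did. The separate fits differed in the share of all genes passing, so passing in only 1 of them is not a test of slide. Passing on both HFD slides does not separate diet from the LFD slides or the scan day.

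**Figure D4:**
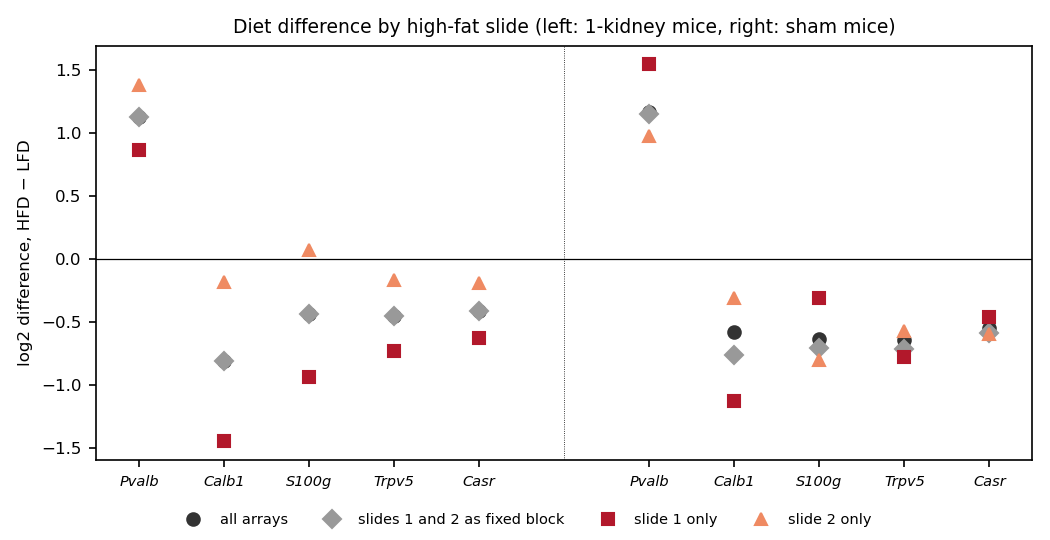
Log2 difference, HFD minus LFD, of 5 genes with all arrays, with slides 1 and 2 as a fixed block, and with the HFD arrays of 1 slide only, in 1-kidney (UNX) mice on the left and sham mice on the right. Pvalb lies between 0.87 and 1.55 in every fit shown, and Calb1 in UNX mice lies at -1.45 on slide 1 and -0.18 on slide 2.

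Removal of 1 kidney was compared with sham surgery on each diet. On the HFD, 0 of the 10 genes passed in limma, 0 had an unadjusted p under 0.05, and the groups of each gene overlapped. Among all genes 0.0% passed, 4.65% had an unadjusted p under 0.05, and the groups did not overlap for 1.69% (UNX higher) and 1.23% (UNX lower). The log2 differences, UNX minus sham, ran from -0.18 (Atp2b1) to 0.48 (S100g, 95% confidence interval -0.12 to 1.08), 9 of the 10 lay above 0, as did 54.5% of all genes, and their median was 0.35 against 0.02 over all genes. The difference was 0.44 for Pvalb (-0.10 to 0.99), 0.44 for Trpv5 (-0.10 to 0.98), 0.42 for Cldn16 and 0.39 for Calb1. Markers of the distal segments leaned the same way, and none of them passed. Above 0 lay 8 of 9 distal convoluted tubule markers (median 0.22) and 8 of 10 connecting tubule and principal cell markers (median 0.28). Of 9 thick ascending limb markers, 6 lay above 0 (median 0.18). Blocking the HFD arrays on mouse number, which partly follows slide, let 0 of the 10 genes and 0.156% of all genes (25 genes) pass. That fit was added after the data were seen. With the HFD arrays of slide 2 alone, S100g was higher in UNX mice by 1.14 (adjusted p = 0.0475, with 1.1% of all genes passing), and on slide 1 alone the difference was -0.35 (adjusted p = 0.653, with 0.0187% passing). For Pvalb the surgery difference was 0.89 on slide 2 (adjusted p = 0.144) and -0.20 on slide 1 (adjusted p = 0.872), and for Calb1 it was 0.75 (adjusted p = 0.244) and 0.30 (adjusted p = 0.795). No other alternative gave S100g an adjusted p under 0.05 in this comparison.

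On the LFD, 0 of the 10 genes passed in limma or had an unadjusted p under 0.05, and the groups of each gene overlapped. Among all genes 0.00623% passed (1 gene), 3.22% had an unadjusted p under 0.05, and the groups did not overlap for 2.57% (UNX higher) and 2.04% (UNX lower). The log2 differences ran from -0.25 (Slc8a1) to 0.62 (Calb1, 95% confidence interval -0.13 to 1.36), 8 of the 10 lay above 0, as did 51.9% of all genes, and the median was 0.24 against 0.01 over all genes. The other Slc8a1 probe lay on the other side of 0, at 0.67 (-0.12 to 1.45, unadjusted p = 0.0890). Pvalb differed by 0.48 (-0.02 to 0.99, unadjusted p = 0.0596) and Cldn16 by 0.54 (-0.17 to 1.25). These intervals include 0 and reach 1.36 for Calb1, 1.25 for Cldn16 and 0.99 for Pvalb. Segment markers leaned the same way on the LFD, and none of them passed. Above 0 lay 9 of 9 distal convoluted tubule markers (median 0.10) and 9 of 10 connecting tubule and principal cell markers (median 0.15). Of 9 thick ascending limb markers, 8 lay above 0 (median 0.21).

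Whether the diet difference itself depended on surgery was tested as an interaction. In limma 0 of the 10 genes passed, 0 had an unadjusted p under 0.05, and the adjusted p was 0.9999 for each. Among all genes 0.0% passed and 1.34% had an unadjusted p under 0.05. For Pvalb the diet difference in UNX mice minus that in sham mice was -0.04 (95% confidence interval -0.78 to 0.70). The largest was that of Slc8a1, at 0.56 (-0.50 to 1.63), where its other probe gave -0.38 (-1.53 to 0.77).

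Of 36 other genes of calcium and magnesium handling, 35 were tested. In sham mice 1 was higher and 1 lower on the HFD, and in UNX mice 2 were higher and 1 lower, with list medians of 0.02 and -0.03. Of all genes, 6.82% were higher and 6.99% lower in sham mice, and 7.89% higher and 6.11% lower in UNX mice. Atp2b4, another plasma membrane calcium pump, was higher on the HFD in both, by log2 0.82 in sham mice (limma adjusted p = 0.0118) and 0.69 in UNX mice (adjusted p = 0.0162). Trpv6, the channel most closely related to Trpv5, was lower in sham mice (-0.57, adjusted p = 0.0402), and in UNX mice had -0.43 (adjusted p = 0.0860). In sham mice Trpv6 averaged -3.01 ± 0.25 on the HFD (n = 3) and -2.44 ± 0.27 on the LFD (n = 4), with no overlap.

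Slc8a2, a sodium-calcium exchanger best known from brain, was higher on the HFD in UNX mice (0.88, adjusted p = 0.0169), where it was well above background on 4 of 4 HFD arrays and 2 of 4 LFD arrays. Cnnm1, of a family linked to magnesium transport, was lower in UNX mice (-0.46, adjusted p = 0.0250). The regulators did not pass in sham or UNX mice. Vdr, the vitamin D receptor, differed by 0.47 and 0.44 (adjusted p = 0.0947 and 0.0879), and Pth1r, the parathyroid hormone receptor, by 0.18 and 0.30. Kl, the FGF23 co-receptor klotho, differed by 0.03 and -0.23. Cyp24a1, which breaks down active vitamin D, differed by 0.53 and 0.28, and Cyp27b1, which makes it, by -0.98 and -0.96 (adjusted p = 0.428 and 0.393), with HFD UNX arrays from -4.66 to -1.04. Cldn19, the partner of Cldn16, differed by 0.29 and 0.10. The magnesium genes Cnnm2 (-0.28 and -0.15) and Slc41a3 (0.35 and 0.54) did not pass.

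**Figure D5:**
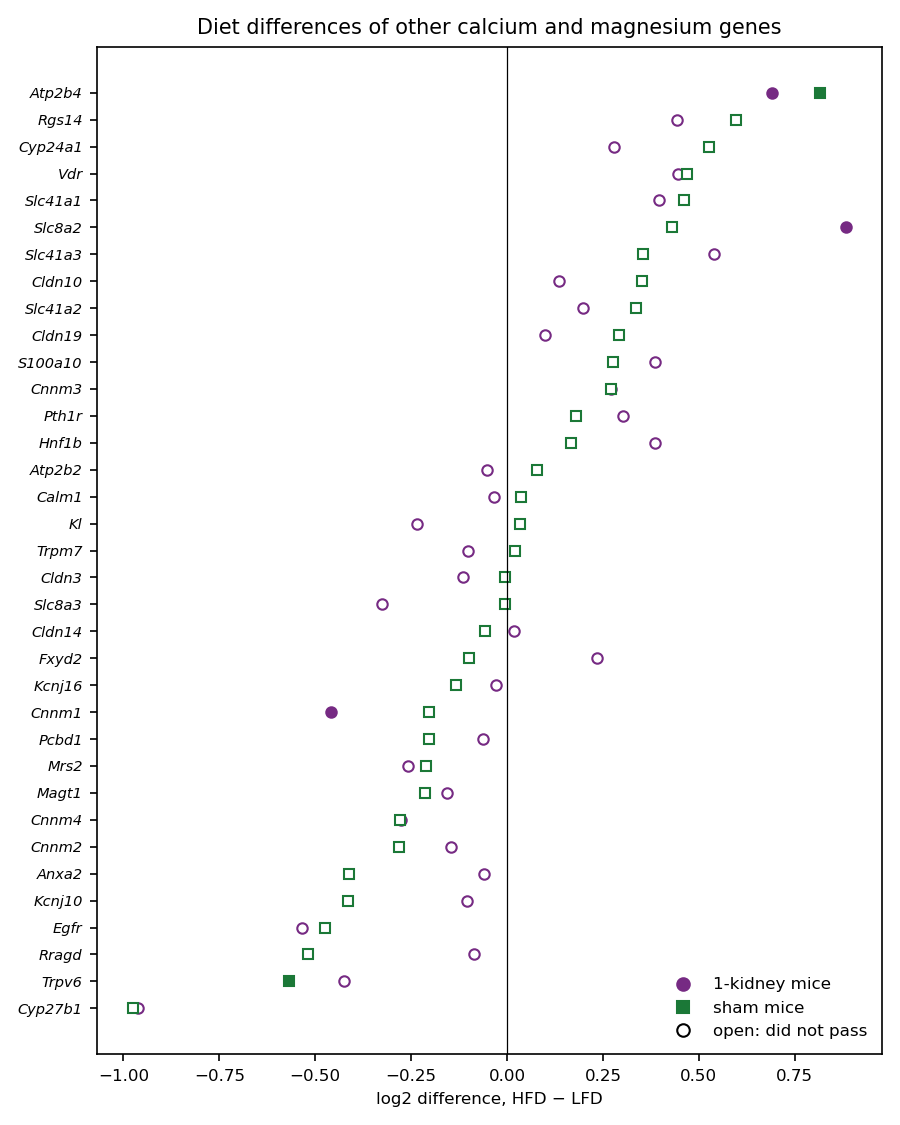
Log2 difference, HFD minus LFD, of 35 other calcium and magnesium genes in 1-kidney (UNX) mice (circles) and sham mice (squares), ordered by the sham value; filled symbols passed. Atp2b4 passed in both, at 0.82 in sham mice and 0.69 in UNX mice.

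Markers of the segments that hold these genes were read from the same fit. Of 9 thick ascending limb markers tested, none passed in a diet comparison, with medians of 0.06 in sham mice and -0.26 in UNX mice, and Umod, the abundant urinary protein made in that segment, differed by 0.18 and 0.08. Of 9 markers of the distal convoluted tubule, the segment of Pvalb, Trpm6 and part of Trpv5, none passed, with medians of 0.01 and 0.16. Slc12a3, the thiazide-sensitive cotransporter that defines that segment, differed by -0.26 in sham mice (limma adjusted p = 0.527) and 0.23 in UNX mice (adjusted p = 0.547), and Slc12a1, its counterpart in the thick ascending limb, by 0.06 and -0.30. The mean level of the 9 convoluted tubule markers ran from 2.02 to 2.24 on HFD UNX arrays and 1.86 to 2.07 on HFD sham arrays, against 1.94 to 2.20 on LFD UNX arrays and 1.86 to 2.05 on LFD sham arrays. These ranges overlapped between diets, and the part of these markers in the difference of Pvalb was not tested.

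Of 10 markers of the connecting tubule and principal cells, Nr3c2, the mineralocorticoid receptor, and Scnn1a, a subunit of the epithelial sodium channel, were lower on the HFD. Nr3c2 differed by -1.38 in sham mice (limma adjusted p = 0.00483) and -0.85 in UNX mice (adjusted p = 0.0301), and Scnn1a by -0.72 (adjusted p = 0.00474) and -0.53 (adjusted p = 0.0135). The other 8 did not pass, and the medians of the 10 were -0.11 and -0.18, where 6.99% and 6.11% of all genes were lower. Named after their values were seen, Hsd11b2, the enzyme that keeps cortisol and corticosterone from that receptor, differed by 1.07 in sham mice (adjusted p = 0.134) and 1.20 in UNX mice (adjusted p = 0.0758, with no overlap), and Scnn1b, another channel subunit, by 0.24 (adjusted p = 0.537) and 0.41 (adjusted p = 0.240). The third subunit, Scnn1g, was well above background on 2 of 4 HFD UNX arrays and 2 of 3 HFD sham arrays, against 0 of 4 LFD UNX arrays and 0 of 4 LFD sham arrays. The lowest level called well above background was -7.26 to -6.13 on HFD arrays and -6.02 to -5.29 on LFD arrays. A dim signal could therefore count on an HFD array and not on an LFD array. Scnn1g differed by 0.97 in sham mice (adjusted p = 0.466) and 1.19 in UNX mice (adjusted p = 0.320). Of 10 intercalated cell markers, 2 were lower in sham mice (where 6.99% of all genes were lower), and 3 were lower and 1 higher in UNX mice (where 6.11% of all genes were lower and 7.89% higher). Their mean level ran from 0.84 to 1.14 on HFD UNX arrays and 0.87 to 1.13 on HFD sham arrays, against 1.17 to 1.43 on LFD UNX arrays and 1.15 to 1.37 on LFD sham arrays. Their part in the differences of Calb1, S100g and Trpv5 was not tested.

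The genes most like Pvalb over the 15 arrays, by the root mean square difference of profiles centred on their own means, were Dzip1 (0.279), Pianp (0.308) and Pou3f1 (0.311), of 16011 genes compared. The median gene lay 0.761 from Pvalb, whose own spread was 0.700. Dzip1 was higher on the HFD by 0.98 in sham mice (limma adjusted p = 0.00192) and 0.88 in UNX mice (adjusted p = 0.00145), and Pou3f1 by 1.08 (adjusted p = 0.00263) and 0.86 (adjusted p = 0.00393). Pianp did not pass (adjusted p = 0.0667 and 0.0533), and was well above background on 0 of 4 LFD sham arrays. Their likeness to Pvalb was what chose them, so their values are a description.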

How the data were processed

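Total RNA of each mouse (100 ng) was amplified with Cy3 label for 1-colour Agilent arrays, per the labels' protocols. The deposited intensity values were read with Agilent Feature Extraction (10.7.3.1 in the file headers; the submitters' processing notes say 10.7), which subtracted background and spatial trends within an array and did not normalize between arrays. A series-wide value table gives those intensities rounded (ratio 0.995 to 1.005) and served as an alternative.

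Probes were named through their RefSeq accessions (27234 of 39429 probes), with a gene table of GRCm38.p6 used for names. Log2 signal minus the array's 75th percentile was taken. Control spots and 74 to 273 outlier-marked spots per array were left out. Probes had to exceed background clearly on 3 or more arrays, and the brightest stood for its gene. limma 3.58.1 (R 4.3.3) fitted 4 group means over 15 arrays, with no covariate, and p-values were adjusted over 16055 genes. The replicate numbers are those of different mice. Between the HFD groups the deviations of all 3 same-numbered pairs correlated over 0.1 (0.12 to 0.43), so these groups were also fitted with the number as a block. The HFD pairs numbered 1 (0.43) and 3 (0.33) each shared a slide, and the pair numbered 2 (0.12) did not. Number and slide therefore cannot be told apart for those that shared one, and pairs of unlike number were not compared. Between other groups 2 of 18 same-numbered pairs correlated over 0.1. Alternatives changed the normalization, the correction for background (normexp, offset 50, on median spot and background intensities from the deposited scanner files), filter, probe choice, slide and replicate blocks, array weights and the arrays in the fit. The number of arrays limits precision. The statistics were tested on simulated data. The simulated arrays varied independently and had no slide effect, so that test does not cover variation from slide to slide.

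The 10 genes and the lists were chosen with earlier results of these data known. Named in every comparison were the 10 genes. From the other calcium and magnesium list and the segment lists, those that passed by diet and 12 set genes were named, and for Pvalb the 3 genes with the closest profile. The muscle markers were named after their values were seen.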

Additional observations from a re-analysis of the deposited data

Results flagged for a closer look

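In 1 of the 30 groups of 4 arrays tested over the 10 genes, a single array stood apart by Dixon's criterion at the 95% level, which chance alone meets in about 1 in 20 groups. It was Trpv5 in HFD UNX replicate 1, at a normalised log2 intensity of -3.64, where the other arrays of the group lay between -2.67 and -2.48. Without that array the diet difference of Trpv5 in UNX mice was -0.19 (limma adjusted p = 0.554), against -0.45 with it (adjusted p = 0.216). The same array was also the lowest of its group for Calb1, S100g, Trpm6, Casr, Cldn16 and Egf.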

How the results depend on the processing

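Of 1180 alternative values of the 50 results for the 10 genes, under 31 settings, 1164 stayed on the same side of the threshold, 14 gained a call, 2 lost it (Pvalb with slide as a random block) and 0 reversed; 84 values that passed in neither fit changed sign. The counts moved more than the 10 genes, and the cause was not tested. By diet in sham mice, 2217 genes and 1 of the 10 genes passed. With normexp 199 genes passed, with no filter on dim probes 4792 (the median of all genes then being -0.11), with slide as a random block 14 and 0 of the 10, with the fixed slide block 4433 and 3, with the groups compared alone 1181 and 2, with HFD slide 1 alone 4826 and 2, and with slide 2 alone 3641 and 2. Leaving out 1 array gave 1210 to 2373 genes, the count moving by over 1.5 times without LFD sham replicate 1, 2 or 3 or HFD sham replicate 2. By diet in UNX mice, 2248 genes and 1 of the 10 passed. With normexp 318 genes passed, with the random block 28 and 0 of the 10, with the fixed block 4073 and 2, with array weights 5659 and 3, and with slide 1 alone 7631 and 3. Leaving out 1 array gave 1301 to 3279 genes, lower by over 1.5 times without LFD UNX replicate 1, 3 or 4 or HFD UNX replicate 1 or 2, and 1 to 3 of the 10, with 3 without HFD UNX replicate 3. The replicate block gave 2 of the 10 (Calb1 added, adjusted p = 0.0413) and changed no other call of these genes. The numbers went together between the HFD groups only, where the pairs numbered 1 and 3 each shared a slide.

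For surgery on the LFD, 1 gene passed, against 2 with quantile normalization, 100 with array weights, and 0 with normexp, the stricter filter, the random block, the replicate block or the groups compared alone; leaving out 1 array gave 0 to 1, with 0 for every array but LFD sham replicate 1. For surgery on the HFD, 0 genes passed, against 1 with cyclic loess, 25 and 0 of the 10 with the replicate block within the HFD groups, 3 with slide 1 alone, and 176 and 1 of the 10 (S100g) with slide 2 alone. For the interaction 0 genes passed, against 2 with slide 1 alone and 0 to 1 on leaving out 1 array (1 without LFD sham replicate 1). The fits with 1 HFD slide or with the block within the HFD groups were chosen after seeing the data. Diet coincides with scan day in all fits, and 3 or 4 arrays per group limit the differences that can be seen.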

Other observations

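Markers of other cells in the kidney samples were read from the same limma fit, as log2 differences HFD minus LFD. Among all genes, 6.82% were higher and 6.99% lower in sham mice, and 7.89% higher and 6.11% lower in UNX mice. Of 10 lymphocyte markers, 2 were higher in sham mice (Cd4, Cd79b) and 4 in UNX mice (Cd3e, Cd4, Cd79b, Ms4a1), with medians of 0.66 and 0.60. Of 10 adipocyte markers, 2 were lower in sham mice (Car3, Cfd), and in UNX mice 1 was higher (Lep) and 1 lower (Car3), with medians of -1.90 and 0.23. Of 9 fibroblast and matrix markers, 3 were lower in sham mice (Dcn, Sparc, Timp1) and 0 passed in UNX mice, with medians of -0.63 and -0.23. Of 10 liver-type markers, 1 was higher in sham mice (Ttr), and 1 was higher (Ttr) and 2 lower (Ahsg, Hpx) in UNX mice. Of these 10, 8 had a difference below 0 in sham mice and 9 in UNX mice, with medians of -0.67 and -0.51. Of 9 macrophage and 8 podocyte markers tested, 0 passed. Of 10 endothelial markers, 1 was lower in sham mice (Flt1) and 2 higher in UNX mice (Cdh5, Ehd3), with medians of 0.10 and 0.35. Of 10 proximal tubule markers, 1 was higher in sham mice, and 1 higher and 1 lower in UNX mice (medians -0.08 and -0.02). Of 4 adrenal markers tested, 2 were higher in sham mice (Cyp21a1, Th) and 1 in UNX mice (Th), with medians of 0.65 and 0.41. Of 6 erythroid markers tested, 0 passed in sham mice and 1 was lower in UNX mice (Hbb-bt). These markers were named after their values were seen, and their part in the differences of the 10 calcium and magnesium genes was not tested.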
